A study of Mus musculus with 4 samples.

Results

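The 42 autosomal protein-coding collagen genes were described in RNA-seq of mouse hearts at postnatal day 7 (P7). They were chosen by symbol alone (Col, a type number, the letter a and a chain number) from the 24454 genes of the count table, 24374 of which were matched to a symbol. *Col4a5* and *Col4a6*, on the X chromosome, fall outside that rule. The design compares hearts that overexpress *miR-128* with control hearts, and the collagen genes were read by structural class as 11 fibrillar, 6 basement membrane, 6 beaded filament, 9 fibril-associated, 4 transmembrane and 6 network, anchoring and remaining members. There were 2 Ctrl libraries (WH7 and WH8) and 2 miR-128OE libraries (WH9 and WH10).

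According to the study's methods, Ctrl mice carried the *miR-128*TetRE transgene without α-MHC-tTA, and miR-128OE mice carried α-MHC-tTA as well as *miR-128*TetRE. The α-MHC promoter drives the tetracycline transactivator (tTA) in cardiomyocytes and doxycycline (Dox) represses the transgene, so the overexpression is placed in cardiomyocytes and not in the fibroblasts and endothelial cells that make most of the collagen of a heart. The Dox schedule of these hearts, and whether a library held 1 heart or pooled hearts, are not given in the sources used here. *Xist*, the RNA of the silenced X chromosome in females, had 14543 counts in WH7, 11339 in WH8, 94 in WH9 and 132 in WH10, so overexpression, tTA and the sex of the mice cannot be told apart in any difference below. Nothing states that libraries of a group came from separate litters, and p-values measure the spread between these libraries.

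A collagen molecule is wound from α chains, each encoded by its own gene, and the chains that a cell makes together decide which molecule is built. Fibrillar collagens (types I, III and V in the heart) form the load-bearing fibers between muscle bundles and are made mainly by fibroblasts. Type IV collagen forms the sheet-like network of the basement membrane around every cardiomyocyte and capillary, together with laminins and nidogens. Fibril-associated collagens sit on the surface of fibers, type VI collagen forms beaded microfilaments beside cells, and other types form anchoring fibrils, short-chain networks or proteins that span the cell membrane. Collagen is modified and folded in the endoplasmic reticulum, trimmed by proteinases and cross-linked by lysyl oxidases outside the cell.

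*MiR-128* acts by pairing bases 2 to 8 of its mature strand, the seed, with 3′UTRs. The mature strand is shown because the mice overexpress it, with the seed in capitals (RefSeq, GRCm38.p6).
mmu-miR-128-3p: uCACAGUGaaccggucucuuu

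A seed match in an annotated 3′UTR was found in 11 of the 42 collagen genes. Among tested genes with a 3′UTR model, a match was present in 28.9% of 38 collagen genes and 31.0% of 13495 genes in all. It was present in 3 of the 9 collagen genes that were lower in miR-128OE hearts (*Col9a1*, *Col11a1* and *Col27a1*) and in 1 of the 4 that were higher (*Col26a1*, with 2 matches). These sites are shown with that of *Col3a1*, the most abundant collagen RNA per length, and the capitals mark the bases that match. The match is CACTGTG, the complement of bases 2 to 8, or ACTGTGA, the complement of bases 2 to 7 followed by A, and *Col27a1* holds both merged. Each lies in the last exon, and positions are those of the capitals in GRCm38.
*Col9a1*, exon 32, chr1:24252172-24252178, plus strand: tgttgtgggtCACTGTGccaac
*Col11a1*, exon 67, chr3:114219289-114219295, plus strand: acaattgtggACTGTGAcggca
*Col27a1*, exon 61, chr4:63333906-63333913, plus strand: tgctacctccCACTGTGAaatcg
*Col26a1*, exon 13, chr5:136742379-136742385, minus strand: ggagtttgggACTGTGAgggag
*Col26a1*, exon 13, chr5:136741759-136741765, minus strand: gtgctctctcCACTGTG
*Col3a1*, exon 51, chr1:45349021-45349027, plus strand: tttatgataaCACTGTGttaca
The second site of *Col26a1* ends at the last base of the annotated transcript. A match is a description of the sequence and not evidence that the site is used.

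Library totals were 12385863 (Ctrl WH7), 8096870 (Ctrl WH8), 12440553 (miR-128OE WH9) and 14359838 (miR-128OE WH10) counts. The Ctrl libraries stood apart from each other in a way that touched the collagens. WH7 was above WH8 in 33 of 38 tested collagen genes, against 6650 of all 14266 tested genes. The median log2 ratio of WH7 to WH8 was 0.33 over the collagen genes and −0.02 over all tested genes. Fibroblast markers moved with this split, with a summed level of 3955 CPM (counts scaled to the effective library size) in WH7, 2717 in WH8, 4115 in WH9 and 4157 in WH10, and 12 of 12 were higher in WH7 than in WH8. Atrial genes, chosen after their values were seen, moved as well. *Myl7*, the atrial myosin light chain, had 25088 counts in WH7, 2341 in WH8, 10539 in WH9 and 12265 in WH10. *Nppa*, atrial natriuretic peptide, had 34013, 1943, 5217 and 12886 counts. Epicardial markers summed to 165 CPM in WH7 against 91.4 in WH8, and to 107 and 98.4 in the miR-128OE libraries. The part of these cell types in the collagen results was not tested. In RNA of whole tissue, fewer cells of a type and less RNA per cell cannot be told apart, and this holds for each result below.

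Of the 42 collagen genes, 38 had enough counts to be tested. The others were near the floor of 3 counts, with 1, 0, 2 and 1 counts of *Col6a4* in WH7, WH8, WH9 and WH10, 1, 3, 3 and 8 of *Col19a1*, 2, 2, 3 and 8 of *Col10a1*, and 11, 4, 8 and 3 of *Col17a1*. At an adjusted p-value under 0.05, 13 of 38 differed between conditions (34.2%, where 31.5% of all tested genes did). Of these, 4 were higher in miR-128OE hearts (16.5% of all tested genes were higher) and 9 were lower (15% of all tested genes were lower). The share of collagen genes that passed was therefore near that of the whole table. Calls leaned on having both miR-128OE libraries. Without WH9 or WH10 most of the 13 were lost, and without WH9 only *Col26a1* and *Col9a1* were kept. Fewer genes were called over the whole table too, as the spread then came from the Ctrl libraries. The median log2 fold change was −0.09 over the collagen genes and −0.01 over all tested genes. The groups did not overlap in 23 of 38 collagen genes, and in 68.1% of all tested genes.

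The direction of the called collagen genes differed with the level of the RNA. Among the 13 collagen genes with a mean of at least 100 CPM, 3 were higher and 0 were lower (at an unadjusted p under 0.05 in edgeR 5 and 0, and with DESeq2 3 and 0). Among the 25 tested collagen genes under 100 CPM, 1 was higher and 9 were lower (at an unadjusted p 1 and 11, and with DESeq2 1 and 5). This split was made after the values were seen and has no test, and without WH7 only 3 collagen genes were lower in all. Of all tested genes 16.5% were higher and 15% were lower, and the shares among all genes at either level were not computed. By class, the higher genes were 3 of 6 basement membrane members and *Col26a1*. The 3 at or above 100 CPM were those basement membrane members, so level and class cannot be told apart for them. The lower genes were 5 of 8 tested fibril-associated members, 2 of 11 fibrillar members, *Col7a1* and *Col8a2*.

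**Figure D1:**
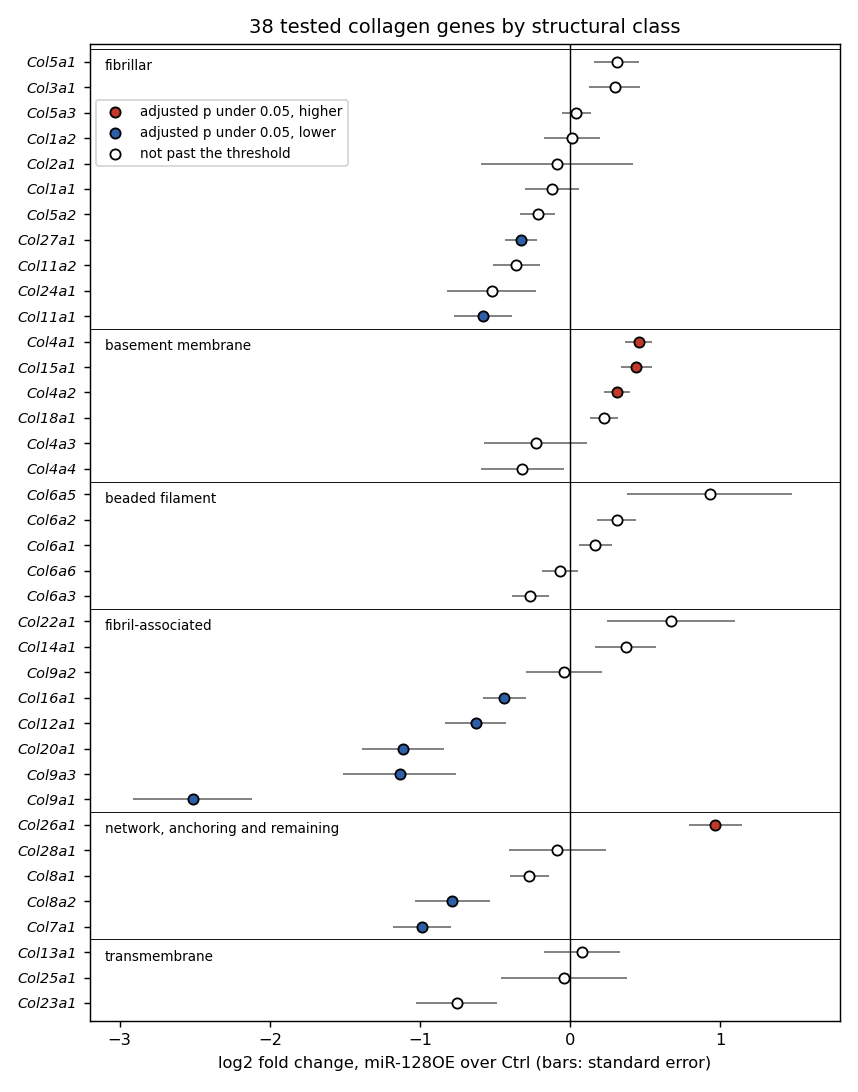
Log2 fold change of miR-128OE over Ctrl for the 38 tested collagen genes (horizontal axis, bars are standard errors of the edgeR fit on 2 against 2 libraries), grouped by structural class. Red points (4) were higher and blue points (9) were lower at an adjusted p under 0.05, open points did not pass, and *Col9a1* lies farthest from 0 at −2.51.

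RNA of the fibrillar collagens that build the fibers of the heart did not differ between conditions by more than the spread between the Ctrl libraries. With no filter on low counts, however, *Col3a1* and *Col5a1* were called higher in miR-128OE hearts. *Col3a1* (chromosome 1 of GRCm38, 45311538 to 45349706) encodes the chain of type III collagen, which makes thin, pliable fibers. It had 38126 normalized counts in Ctrl WH7, 24581 in Ctrl WH8, 38189 in miR-128OE WH9 and 38885 in miR-128OE WH10 (counts scaled to a common library size). WH8 was low and the other three were alike, so the difference between groups (log2 fold change 0.30, standard error 0.17, adjusted p = 0.209) rested on WH8. *Col1a1* (chromosome 11, 94936224 to 94953042) encodes the α1 chain of type I collagen, the main stiff fiber. Its normalized counts were 28208, 17808, 19666 and 22668 in the same order, and the miR-128OE libraries lay between the Ctrl libraries (log2 fold change −0.12, standard error 0.18, adjusted p = 0.644). *Col1a2* (chromosome 6, 4505618 to 4541543), the α2 chain of type I, had 24142, 15143, 18173 and 21482, with the same order of libraries (0.01, standard error 0.18, adjusted p = 0.964).

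Type V collagen is built into type I fibers and limits their width. *Col5a1* had 4180, 2815, 4332 and 4357 normalized counts in WH7, WH8, WH9 and WH10, where again WH8 alone was low (log2 fold change 0.31, adjusted p = 0.148). *Col5a2* changed by −0.22 on the log2 scale (adjusted p = 0.193) and *Col5a3* by 0.04 (adjusted p = 0.779), and neither passed. *Col11a1* and *Col27a1*, fibrillar collagens best known from cartilage, fell. *Col11a1* had 123 and 110 normalized counts in Ctrl and 83.2 and 73.2 in miR-128OE libraries (log2 fold change −0.58, standard error 0.19, adjusted p = 0.0456). *Col27a1* had 667 and 622 in Ctrl and 470 and 556 in miR-128OE libraries (−0.33, standard error 0.11, adjusted p = 0.0423). Neither call was kept by the DESeq2 test, with an offset for GC content and length (−0.44 and −0.20, adjusted p = 0.111 and 0.16) or without WH7 (adjusted p = 0.13 and 0.0923). *Col11a2* (−0.36), *Col24a1* (−0.52) and *Col2a1* (−0.09), the last with 5 to 20 counts a library, did not pass.

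**Figure D2:**
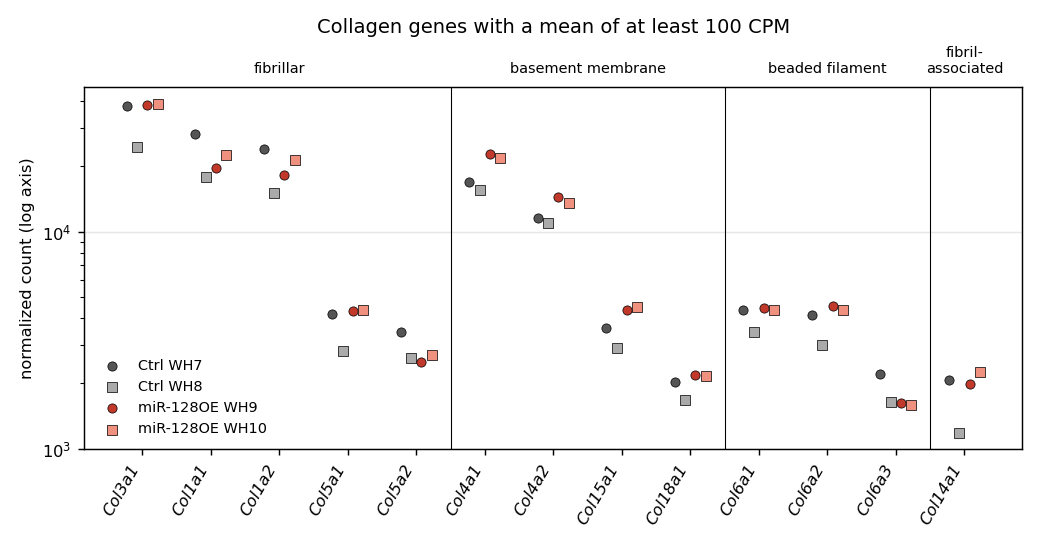
Normalized counts (log axis) of the 13 collagen genes with a mean of at least 100 CPM, in each Ctrl (grey) and miR-128OE (red) library, ordered by class. In *Col1a1* and *Col1a2* the miR-128OE libraries lie between Ctrl WH7 and Ctrl WH8, whereas in *Col4a1* and *Col4a2* both lie above both Ctrl libraries.

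The reading of type I collagen depended on which Ctrl library was used. Against WH8 alone, *Col1a1* was higher in miR-128OE hearts by 0.25 on the log2 scale (adjusted p = 0.0473) and *Col1a2* by 0.39 (adjusted p = 0.00654). Against WH7 alone, both were lower, at −0.41 (adjusted p = 0.00388) and −0.28 (adjusted p = 0.0395). *Col3a1* was 0.65 against WH8 (adjusted p = 3.1e-05) and 0.02 against WH7 (adjusted p = 0.879). *Col5a1* behaved like *Col3a1*, at 0.63 and 0.06. *Col5a2* was −0.008 against WH8 and −0.39 against WH7. Over the whole family, the median log2 fold change was 0.25 without WH7 and −0.37 without WH8. Over all tested genes it was −0.00041 and −0.0055 in the same fits. In these fits the lone Ctrl library is assumed to vary as the miR-128OE libraries do.

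**Figure D3:**
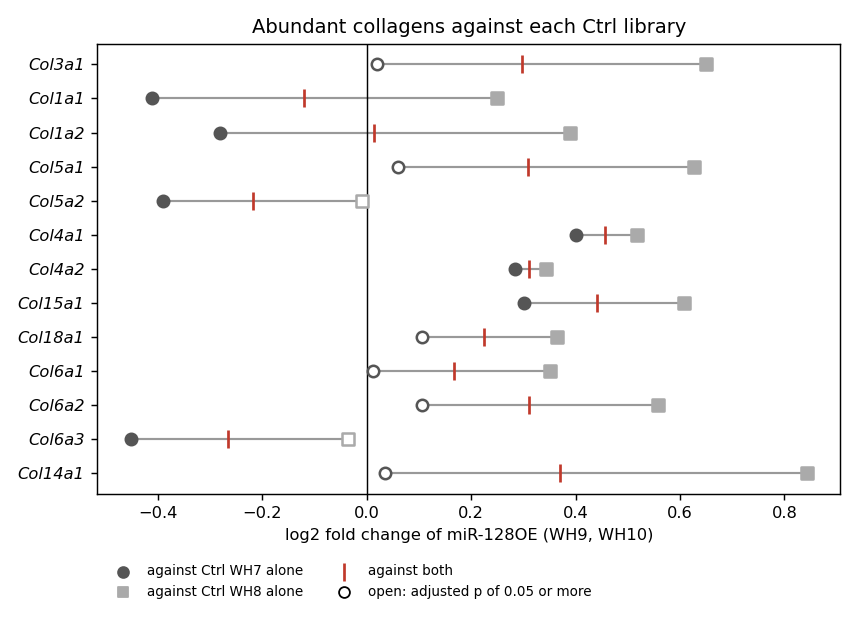
Log2 fold change of miR-128OE (WH9 and WH10) for the 13 abundant collagen genes against Ctrl WH7 alone (circles), Ctrl WH8 alone (squares) and both (red bars). Filled symbols passed an adjusted p under 0.05. *Col1a1* moves from −0.41 to 0.25 between the Ctrl libraries, and *Col4a2* from 0.28 to 0.34.

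Collagen took 1.32% of all counts in WH7, 0.939% in WH8, 1.16% in WH9 and 1.23% in WH10. The mean share was 1.13% ± 0.271 (SD, n = 2) for the Ctrl libraries against 1.19% ± 0.049 (SD, n = 2) for the miR-128OE libraries (p = 1, two-sided exact permutation test, whose smallest p with 2 against 2 libraries is 0.333). The fibrillar class took 0.881%, 0.565%, 0.684% and 0.758%, and the groups overlapped. The basement membrane class took 0.303% and 0.274% in Ctrl and 0.357% and 0.349% in miR-128OE hearts, with no overlap (exact permutation p = 0.333, the smallest it can give). The scarce network, anchoring and remaining class and the transmembrane class did not overlap either, and were lower in miR-128OE hearts. As shares of the effective library size, those scarce classes overlapped and the basement membrane class did not. *Col1a1*, *Col1a2*, *Col3a1*, *Col4a1* and *Col4a2* together held between 78.4% and 79.8% of the collagen counts of a library.

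In 5 pairs of chains, the ratio differed less between the Ctrl libraries than the levels did. All are ratios of counts per exon length and library size (RPKM) within a library. *Col3a1* to *Col1a1* was 0.904 in WH7 and 0.923 in WH8, and 1.30 in WH9 and 1.15 in WH10, so type III was higher against type I in both miR-128OE libraries. *Col5a1* to *Col5a2* was 1.38 and 1.21 in Ctrl and 1.95 and 1.82 in miR-128OE hearts. *Col1a1* to *Col1a2*, the chains of type I collagen, was 2.21 and 2.23 in Ctrl and 2.05 and 1.998 in miR-128OE hearts. *Col4a1* to *Col4a2*, the chains of the common type IV molecule, was 1.31 and 1.26 in Ctrl and 1.41 and 1.43 in miR-128OE hearts. *Col6a1* to *Col6a2* was 2.01 and 2.18 in Ctrl and 1.87 and 1.899 in miR-128OE hearts. In each of these 5 pairs the groups did not overlap (two-sided exact permutation p = 0.333, the smallest it can give). Of single tested genes 68.1% did not overlap either. Ratios of gene pairs at large were not computed, so how often a pair does not overlap is not known. *Col4a1* to *Col1a1*, a ratio between types chosen after the values were seen, was not steady between the Ctrl libraries, at 0.529 and 0.771, with 1.02 and 0.845 in miR-128OE hearts. The size of a ratio depends on the length used (*Col1a1* to *Col1a2* was 1.05, 1.06, 0.976 and 0.952 per longest transcript), while the change between groups does not.

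Divided by the summed fibroblast markers of the same library, a ratio formed after the values were seen, *Col3a1* was 0.819 and 0.768 in Ctrl and 0.788 and 0.794 in miR-128OE hearts. *Col5a1* was equally level on that scale, between 0.0880 and 0.0898 in every library. *Col1a1* was 0.606 and 0.557 in Ctrl and 0.406 and 0.463 in miR-128OE hearts, and *Col1a2* was 0.518 and 0.473 against 0.375 and 0.439. On this scale both type I chains were lower in both miR-128OE libraries than in either Ctrl library, whereas their levels overlapped. This was not particular to type I. *Col5a2* was 0.0737 and 0.0822 in Ctrl and 0.0519 and 0.0554 in miR-128OE hearts. *Col6a3* was 0.0473 and 0.0515 against 0.0336 and 0.0324, and *Col6a1* was 0.0938 and 0.108 against 0.0917 and 0.0886. For *Col6a2* and *Col14a1* the groups overlapped. The scale is itself not neutral, since of the 12 fibroblast markers *Lum*, *Mfap4*, *Mfap5* and *Gas1* were higher in miR-128OE hearts and *Ddr2* was lower. The sum is also weighted toward its most abundant markers, *Vim* and *Dcn*, with 18894 and 10607 normalized counts in WH7. Neither of them passed.

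**Figure D4:**
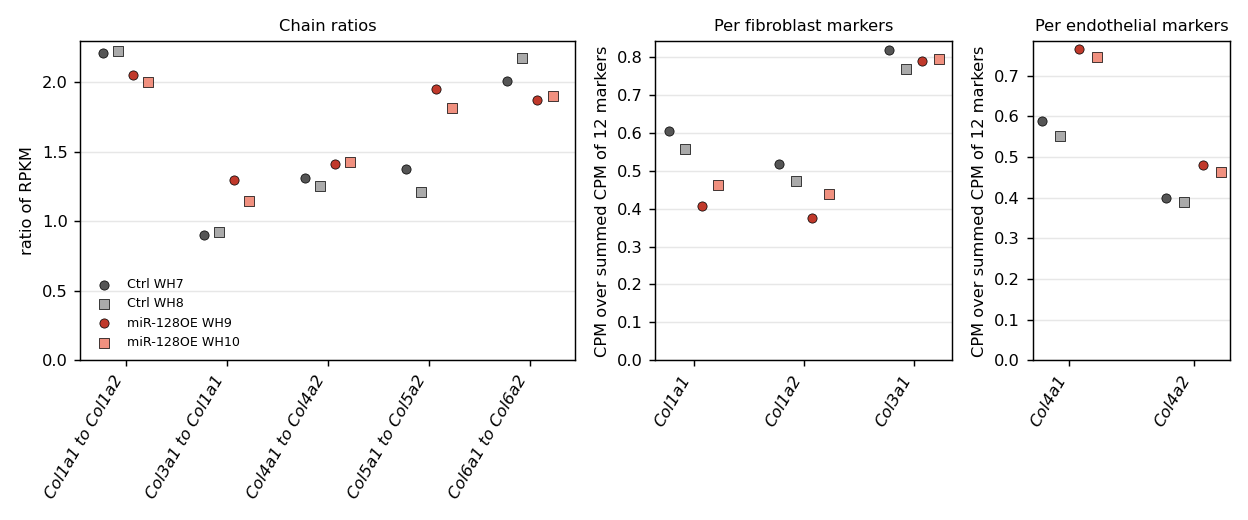
Ratios within each library, Ctrl in grey and miR-128OE in red. Left, RPKM ratios of chain pairs. Middle and right, CPM of a collagen gene over the summed CPM of 12 fibroblast or 12 endothelial markers. The *Col5a1* to *Col5a2* ratio is 1.21 and 1.38 in Ctrl and 1.82 and 1.95 in miR-128OE hearts, and *Col3a1* per fibroblast markers stays between 0.768 and 0.819.

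The main basement membrane collagens rose in miR-128OE hearts. *Col4a1* (chromosome 8, 11198423 to 11312889), the α1 chain of type IV collagen, had 16960 normalized counts in WH7, 15608 in WH8, 22894 in WH9 and 21792 in WH10. It was 1.37-fold higher in miR-128OE hearts (log2 fold change 0.46, standard error 0.09, adjusted p = 0.00526). *Col4a2* (chromosome 8, 11312805 to 11449287), its partner chain, had 11506, 11018, 14387 and 13553, a 1.24-fold rise (0.31, standard error 0.09, adjusted p = 0.0235). *Col15a1*, a collagen of the outer face of capillary and muscle basement membranes, had 3606, 2909, 4373 and 4485 (0.44, standard error 0.10, adjusted p = 0.0117). In these genes both miR-128OE libraries were above both Ctrl libraries, and the calls were kept against either Ctrl library alone. Without WH9, where the spread comes from the Ctrl libraries, the adjusted p was 0.0906 for *Col4a1*, 0.234 for *Col4a2* and 0.0805 for *Col15a1*, at log2 fold changes of 0.43, 0.28 and 0.47. Without WH10 it was 0.0424, 0.103 and 0.0819. *Col4a2* was not called with total counts as the scaling (log2 fold change 0.21), under which the median of all genes was −0.11, or with upper-quartile factors (0.27, adjusted p = 0.0514), under which it was −0.06.

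*Col18a1*, the precursor of endostatin, had 2020, 1685, 2183 and 2155 normalized counts in WH7, WH8, WH9 and WH10, with no overlap, but did not pass (0.22, adjusted p = 0.103). *Col4a3* (−0.23, adjusted p = 0.642) and *Col4a4* (−0.32, adjusted p = 0.416), the chains of the specialized type IV network of kidney and lung, were scarce. WH7 was high in both, with 93.3 normalized counts of *Col4a3* and 146 of *Col4a4* against 41.0 and 74.9 in WH8. The X-linked *Col4a5* was higher in miR-128OE hearts, at 1153 and 989 normalized counts in Ctrl and 1741 and 1617 in miR-128OE hearts (0.64, standard error 0.09, adjusted p = 0.00119). *Col4a6* was not (0.37, adjusted p = 0.261).

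Endothelial markers summed to 2444 and 2402 CPM in Ctrl and 2540 and 2479 CPM in miR-128OE libraries. *Col4a1* relative to that sum was 0.590 and 0.552 in Ctrl and 0.765 and 0.747 in miR-128OE hearts, so its rise was larger than that of the marker sum. Of the 12 endothelial markers, *Pecam1*, *Cdh5* and *Eng* were higher and *Egfl7* and *Emcn* were lower (median log2 fold change −0.12). Relative to the fibroblast markers, *Col4a1* was 0.364 and 0.488 in Ctrl and 0.473 and 0.445 in miR-128OE hearts, and the groups overlapped, as they did for *Col4a2* and *Col15a1* on that scale. Cardiomyocyte markers, from cells that also lie on a basement membrane, summed to 57265 and 62363 CPM in Ctrl and to 77529 and 75740 CPM in miR-128OE libraries, with 6 of 12 higher and *Ryr2* and *Ttn* lower. Relative to that sum *Col4a1* was 0.0252 and 0.0213 in Ctrl and 0.0251 and 0.0244 in miR-128OE hearts, and *Col4a2* and *Col15a1* overlapped between groups too. The part of either cell type in the type IV result was not tested.

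Non-collagen basement membrane proteins were read beside type IV. Of 12, 5 were higher and 1 was lower (median log2 fold change 0.10), where 16.5% of all tested genes were higher and 15% were lower. *Nid2*, nidogen 2, which ties laminin to type IV collagen, had 808 and 828 normalized counts in Ctrl and 1322 and 1207 in miR-128OE hearts (0.63, adjusted p = 0.000801). *Lama2*, the α2 laminin chain of muscle, had 1475 and 1347 in Ctrl and 2044 and 1931 in miR-128OE hearts (0.49, adjusted p = 0.00225). *Lamc1*, the common γ1 laminin chain, had 3813 and 3559 in Ctrl and 5373 and 4914 in miR-128OE hearts (0.48, adjusted p = 0.00322). *Lamb1* and *Nid1* were the other higher members. *Pxdn*, peroxidasin, which forms the sulfilimine bonds that link type IV collagen, was the lower one (−0.33, adjusted p = 0.0131).

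*Col4a1* and *Col4a2* lie head to head on opposite strands and are read from a shared promoter. The RefSeq start sites on which their 300-base windows are set are 21 bases apart, and the windows share 78 bases. The window of *Col4a2* is shown because both genes rose. Its bases up to 11312826 lie within the *Col4a1* transcript whose start site set the *Col4a1* window. The span of *Col4a1* given above ends at 11312889, and by that span the whole window lies within *Col4a1*. The window covers chr8:11312555-11312854 of GRCm38.p6 on the plus strand, and capitals mark each CCAAT box (CCAAT) and GC box (GGGCGG) on either strand.
*Col4a2*: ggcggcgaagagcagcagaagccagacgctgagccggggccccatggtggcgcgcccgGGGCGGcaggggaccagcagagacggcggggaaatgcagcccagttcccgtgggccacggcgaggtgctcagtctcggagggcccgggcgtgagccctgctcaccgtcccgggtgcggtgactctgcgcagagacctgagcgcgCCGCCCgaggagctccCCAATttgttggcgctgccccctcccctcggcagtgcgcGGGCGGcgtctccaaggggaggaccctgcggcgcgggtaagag
It holds 1 CCAAT box and 3 GC boxes and no TATA box (TATAAA). Of all 32851 windows of that length in the RefSeq table, 37.4% held a CCAAT box, 35.7% a GC box and 13.6% a TATA box. Windows were found for 33 collagen genes, and of their 36 windows 12, 21 and 5 held them. Exons of the pair overlap by 22 bases, and how strand was handled in counting is not given in the sources used here.

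Of the 5 tested beaded filament genes, 0 passed in edgeR's quasi-likelihood test, where 31.5% of all tested genes did. With DESeq2 0 passed, and 1 had an unadjusted p under 0.05 in edgeR. *Col6a1* had 4366 normalized counts in WH7, 3443 in WH8, 4444 in WH9 and 4334 in WH10 (log2 fold change 0.17, adjusted p = 0.279). *Col6a2* had 4126, 3009, 4522 and 4338 (0.31, adjusted p = 0.0988), with WH8 low as in the fibrillar genes. *Col6a3*, the largest type VI chain, had 2200, 1647, 1626 and 1585 (−0.27, adjusted p = 0.126), and here WH7 alone was high. Against WH8 alone, *Col6a1*, *Col6a2* and *Col6a3* were at 0.35, 0.56 and −0.04 on the log2 scale. Against WH7 alone they were at 0.01, 0.11 and −0.45. *Col6a6* had 338, 297, 301 and 307 (−0.07, adjusted p = 0.689). *Col6a5* had 5, 6, 14 and 12 counts (0.93, adjusted p = 0.228).

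Fibril-associated collagens held the largest share of lower genes of any class, 5 of 8 tested (15% of all tested genes were lower). Their median was −0.53 on the log2 scale. The count of lower members depended on the settings. It was 4 with DESeq2, 3 with a filter of at least 50 counts and 1 when at least a 1.5-fold change was tested for. It was also smaller without WH7, WH9 or WH10. *Col9a1* (chromosome 1, 24177589 to 24252738), a chain of the type IX collagen that coats cartilage fibers, fell most. It had 43.0 normalized counts in WH7, 35.3 in WH8, 6.93 in WH9 and 6.73 in WH10, a 5.71-fold drop (log2 fold change −2.51, standard error 0.40, adjusted p = 0.00166). The raw counts behind it were 47, 25, 7 and 8. It was the only collagen gene to keep its call in all 14 alternatives that tested it, with log2 fold changes from −2.63 to −2.35. *Col9a3*, another type IX chain, had 60.4 and 32.5 in Ctrl and 17.8 and 25.2 in miR-128OE hearts (−1.14, standard error 0.38, adjusted p = 0.0462). It shares 234 of 3853 exon bases with *Tcfl5* on the opposite strand, and its call was lost with DESeq2 and without WH7 (−0.58, adjusted p = 0.38). *Col9a2* had 93.3, 66.4, 91.1 and 67.3 in WH7, WH8, WH9 and WH10 and did not pass (−0.04, adjusted p = 0.915), so the genes of the type IX chains did not move alike.

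*Col20a1* had 67.7 and 73.5 normalized counts in Ctrl and 37.6 and 27.8 in miR-128OE hearts (−1.11, standard error 0.27, adjusted p = 0.0137). *Col12a1*, which binds type I fibers in tendon and other dense tissue, had 342 and 225 in Ctrl and 161 and 209 in miR-128OE hearts (−0.63, standard error 0.20, adjusted p = 0.0411). *Col16a1* had 915 and 667 in Ctrl and 551 and 624 in miR-128OE hearts (−0.44, standard error 0.14, adjusted p = 0.04). For *Col12a1* and *Col16a1* the lower Ctrl library was close to the higher miR-128OE library, and against WH8 alone they were −0.27 (adjusted p = 0.274) and −0.18 (adjusted p = 0.224). *Col12a1* was also not called with the offset for GC content and length (−0.47, adjusted p = 0.111). *Col14a1*, the close relative of *Col12a1*, went the other way without passing, with 2073, 1182, 1982 and 2251 in WH7, WH8, WH9 and WH10 (0.37, adjusted p = 0.191). *Col22a1* was scarce (0.67, adjusted p = 0.26).

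Other genes known from cartilage, heart valves and tendon were read from the marker list. Of its 8 genes, 6 were tested, 3 were lower (*Acan*, *Comp* and *Matn4*) and 0 were higher (also 0 at an unadjusted p in edgeR and with DESeq2), and in all 6 the groups did not overlap (of all tested genes 15% were lower and 68.1% did not overlap). Their summed level was 95.9 and 67.0 CPM in Ctrl and 46.7 and 50.2 CPM in miR-128OE hearts. The cartilage matrilins *Matn1* and *Matn3* had at most 1 count in any library. *Sox9*, the leading gene of the list, was at −0.44 on the log2 scale (adjusted p = 0.0572), and *Acan*, aggrecan, at −1.32 (adjusted p = 0.00973). *Itga10*, the collagen receptor chain of chondrocytes, had 233 and 237 normalized counts in Ctrl and 108 and 128 in miR-128OE hearts (−0.99, adjusted p = 0.0014). The part of valve or cartilage-like cells in the lower collagen genes was not tested.

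**Figure D5:**
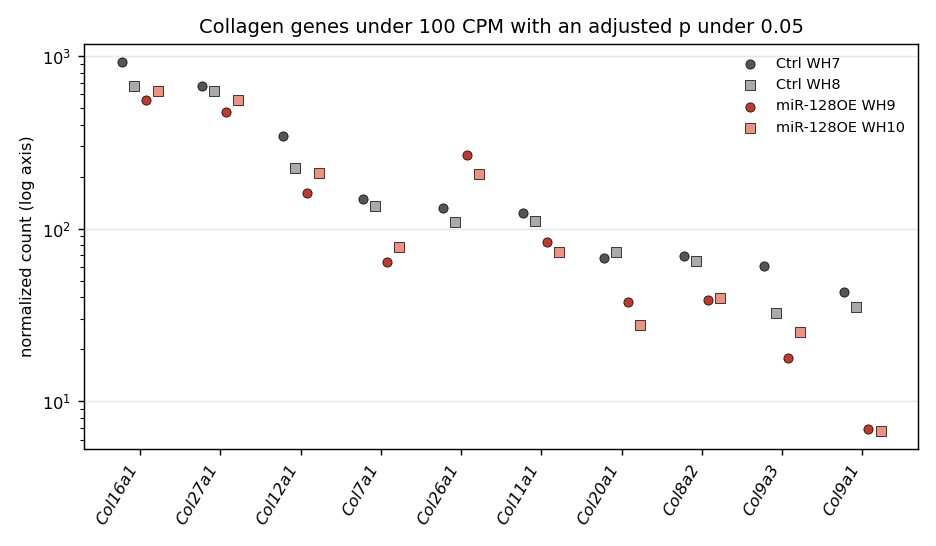
Normalized counts (log axis) in each library of the 10 collagen genes under 100 CPM that passed an adjusted p under 0.05, ordered by their Ctrl mean. *Col26a1* is higher in both miR-128OE libraries (266 and 208 against 131 and 109) and the other 9 are lower, *Col9a1* most.

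*Col26a1* (chromosome 5, 136741759 to 136883376), a collagen with an EMI domain described in testis and ovary, had the largest rise of the family. It had 131 and 109 normalized counts in Ctrl and 266 and 208 in miR-128OE hearts, a 1.95-fold rise (log2 fold change 0.97, standard error 0.18, adjusted p = 0.00338). The call was kept in 14 of 15 alternatives. *Col7a1* (chromosome 9, 108953586 to 108984875), the chain of the anchoring fibrils of skin, fell 1.98-fold. It had 147 and 136 normalized counts in Ctrl and 64.4 and 78.2 in miR-128OE hearts (−0.99, standard error 0.19, adjusted p = 0.00473). Without WH9 it was −0.84 (adjusted p = 0.0581). Of 6 epidermal markers, *Krt5* and *Dsg3* had 0 counts in each library, *Krt14* and *Krt15* had 3 to 13, and *Trp63* had 7 to 25. Of the 2 tested, *Perp*, a desmosome protein of epithelia in general, was higher (0.59, adjusted p = 0.00084) and *Trp63* did not pass (0.83, adjusted p = 0.274).

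*Col8a2*, a chain of the short-chain network of vessel walls and the cornea, had 69.5 and 65.0 normalized counts in Ctrl and 38.6 and 39.5 in miR-128OE hearts (−0.79, standard error 0.25, adjusted p = 0.039). Its call was lost with DESeq2 and without WH7 (−0.73, adjusted p = 0.102). Its partner *Col8a1* had 304 and 260 in Ctrl and 230 and 240 in miR-128OE hearts and did not pass (−0.27, adjusted p = 0.141). *Col28a1*, known from peripheral nerve, was at −0.09 on the log2 scale (adjusted p = 0.863). Of the 3 tested transmembrane collagens, 0 passed in edgeR's quasi-likelihood test, where 31.5% of all tested genes did. With DESeq2 0 passed, and 1 had an unadjusted p under 0.05 in edgeR. *Col23a1* had 112 and 90.5 in Ctrl and 44.6 and 74.9 in miR-128OE hearts (−0.76, adjusted p = 0.0597), and was called lower with edgeR's exact and likelihood ratio tests, with upper-quartile factors, with total counts, with no filter on low counts, and without WH8 or WH10. *Col13a1*, of the neuromuscular junction, was level at 50.3, 53.7, 50.5 and 58.9 in WH7, WH8, WH9 and WH10 (0.08, adjusted p = 0.835). *Col25a1* had 43.9, 17.0, 26.7 and 35.3 (−0.04, adjusted p = 0.954).

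The genes that make, mature, bind and break down collagen were read as lists, against 31.5% of all tested genes called, 16.5% higher and 15% lower. Of 23 tested genes of synthesis and folding, 5 were higher and 0 were lower in edgeR's quasi-likelihood test (21.7% called), where 1 was lower at an unadjusted p under 0.05 and 0 with DESeq2, and the median on the log2 scale was 0.05. *Colgalt2*, which adds galactose to collagen hydroxylysine, had 191 and 209 normalized counts in Ctrl and 313 and 378 in miR-128OE hearts (0.80, adjusted p = 0.00265). *Tmem38b*, an endoplasmic reticulum cation channel needed for type I collagen, had 144 and 133 in Ctrl and 226 and 209 in miR-128OE hearts (0.64, adjusted p = 0.00945). *Sec23a*, a coat protein of the vesicles that carry procollagen out, had 509 and 489 in Ctrl and 756 and 634 in miR-128OE hearts (0.47, adjusted p = 0.00962).

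Of 14 genes of procollagen processing and cross-linking, 2 were higher and 1 was lower. *Loxl2*, a lysyl oxidase of basement membrane and fibrillar collagen, had 1367 and 1232 normalized counts in Ctrl and 1779 and 1833 in miR-128OE hearts (0.47, adjusted p = 0.00283). *Furin*, a proprotein convertase, rose from 1070 and 855 to 1513 and 1358 (0.57, adjusted p = 0.00509). *Bmp1*, the proteinase that removes the C-terminal propeptide of fibrillar procollagen, fell from 3620 and 3485 to 2674 and 2959 (−0.33, adjusted p = 0.0141).

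Of 15 tested fibril-binding matrix proteins, 3 were higher and 1 was lower. *Fmod*, fibromodulin, fell from 705 and 475 normalized counts to 284 and 251 (−1.16, adjusted p = 0.00128). *Lum*, lumican, rose from 2780 and 1654 to 3546 and 3366 (0.63, adjusted p = 0.0286), although both are small leucine-rich proteoglycans that bind type I fibrils. *Ogn*, osteoglycin, rose from 1373 and 1049 to 1864 and 1840 (0.61, adjusted p = 0.00423). Among 15 tested genes of collagen breakdown, 2 were higher and 2 were lower. The proteinase inhibitors *Timp2* (0.57, adjusted p = 0.0173) and *Timp3* (0.31, adjusted p = 0.0314) rose and *Timp4* fell from 74.1 and 102 to 45.5 and 31.1 (−1.19, adjusted p = 0.0126). Of 9 tested collagen receptors, 1 was higher and 3 were lower. *Itgb1*, the β1 integrin chain that pairs with all collagen-binding α chains, rose from 6487 and 5916 to 9328 and 8751 (0.54, adjusted p = 0.00209). *Itga10*, given above, *Lair1*, an inhibitory receptor of leukocytes (−1.34, adjusted p = 0.0267), and *Ddr2* (−0.27, adjusted p = 0.044), a receptor kinase for fibrillar collagen, fell.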

How the data were processed

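RNA-seq libraries of P7 hearts (2 Ctrl, 2 miR-128OE) were used. The authors aligned reads to mm10 with TopHat and deposited raw counts per gene. Their gene models and handling of strand are not given in the sources used here. The miR-128OE and Ctrl groups were compared with edgeR 4.0.16 in R 4.3.3 (filterByExpr defaults, TMM factors, quasi-likelihood test), with Benjamini-Hochberg adjustment over 14266 genes and a threshold of 0.05. Standard errors come from dividing each log2 fold change by the root of its F statistic. Counts printed as normalized were divided by TMM-adjusted library sizes and multiplied by the mean of those sizes. Totals of 8096870 to 14359838 counts set the precision, and a floor of 3 counts covers counting error only. RPKM used union exon lengths of GENCODE M21. The test was tested on simulated data, where more calls were false than the threshold allows when the spread differed from gene to gene.

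The collagen genes, their classes and the pathway and marker lists were chosen with earlier results of these data known. Each collagen gene past the threshold, the 4 of each class with the highest level per length and the 3 genes of each pathway list with the smallest p-value are given with values. Other genes named were chosen after their values were seen. Smooth muscle (2 of 10 higher, 1 lower), macrophage (0 of 9 called in edgeR and with DESeq2, 1 at an unadjusted p under 0.05) and Schwann cell (1 of 7 tested higher, 1 lower) markers were also read. The alternatives were other tests, size factors, filters and thresholds, an offset for GC content and length, autosomal genes alone, and each library left out. Ratios to marker sums were added after the data were seen.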

Additional observations from a re-analysis of the deposited data

How the results depend on the processing

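The counts of genes past the threshold depended most on the fold threshold and on single libraries. When at least a 1.5-fold change was tested for, 249 genes were higher and 216 lower in all, with 0 collagen genes higher and 1 lower (*Col9a1*). With DESeq2, 1410 genes were lower in all, and 5 collagen genes were lower (*Col11a1*, *Col27a1*, *Col8a2* and *Col9a3* were lost). With no filter on low counts, 9 collagen genes were higher and 12 lower. Added as higher were *Col3a1*, *Col5a1*, *Col6a2*, *Col14a1* and *Col18a1*, and as lower *Col6a3*, *Col23a1* and *Col24a1*. With total counts as the scaling, the higher share of all called genes was 35.3% instead of 52.3%, and *Col4a2* was lost, as it was with upper-quartile factors. The offset for GC content and length ended the calls of *Col11a1*, *Col12a1* and *Col27a1* and added *Col18a1* and *Col6a2* as higher. Leaving out a library gave 897 to 2654 higher and 667 to 2384 lower genes in all, and 1 to 12 higher and 1 to 17 lower collagen genes. The lowest counts came without WH9, where *Col26a1* and *Col9a1* were the collagen genes kept. The highest came without WH7 for higher genes and without WH8 for lower collagen genes. No call of a collagen gene under the main settings was reversed.

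Leaving out a library moved the log2 fold change of *Col1a1* from −0.41 to 0.25, of *Col1a2* from −0.28 to 0.39, of *Col13a1* from −0.022 to 0.20, of *Col25a1* from −0.48 to 0.88, of *Col6a6* from −0.15 to 0.036, of *Col9a2* from −0.25 to 0.24, of *Col2a1* from −0.52 to 0.84, of *Col28a1* from −0.36 to 0.36, of *Col24a1* from −0.91 to 0.15, of *Col4a3* from −0.65 to 0.53, of *Col4a4* from −0.68 to 0.29 and of *Col5a3* from −0.034 to 0.12. *Col24a1* and *Col4a4* were called lower without WH8 (adjusted p = 0.00249 and 0.0181). Sign also changed, with no call, for *Col5a3* (−0.0048 with upper-quartile factors, −0.058 with total counts), *Col1a2* (−0.035 with upper-quartile factors, −0.087 with total counts, −0.0093 with at least 50 counts), *Col13a1* (−0.018 with total counts), *Col25a1* (0.0034 with DESeq2, 0.092 with the offset for GC content and length) and *Col6a6* (0.038 with that offset). The cause was not tested. No paired analysis was possible because the labels give no replicate numbers that the groups share. None of the 3 genes with the smallest p-value in each pathway list changed sign.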
